A study of Homo sapiens with 12 samples.

Results

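Ribosome biogenesis factors are the proteins that transcribe, cleave, modify, fold and export ribosomal RNA on its way to a working ribosome. The set described here comprised 44 genes, taken by symbol from a table of 24641 gene symbols, and all 44 were among the 15648 genes with enough reads to be tested. They were measured by stranded RNA sequencing of MDA-MB-231, a line of human triple-negative breast tumour cells, carrying either a hairpin against RIPOR3 (shRIPOR3) or a control hairpin (shControl, labelled wild type). Cells of each kind were kept in hypoxia (1% O2 for 24 hours) or in normoxia, which gave 4 groups of 3 libraries: hypoxia shRIPOR3, hypoxia shControl, normoxia shRIPOR3 and normoxia shControl. All 4 groups share the cell line and the growth medium. The study asks, by its title, how RIPOR3 and hypoxia bear on breast cancer. All shRIPOR3 libraries carry the same hairpin code, so effects of the hairpin beyond RIPOR3 cannot be told apart from those of RIPOR3, and nothing in the labels says that the replicates were separate cultures. The p-values therefore measure only the spread between these libraries, which may be technical.

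As background, ribosome production starts in the nucleolus, where RNA polymerase I copies the ribosomal DNA into a long precursor. Small nucleolar ribonucleoproteins (snoRNPs) methylate and pseudouridylate this precursor, the small-subunit processome folds and cuts the part that becomes the 40S subunit, and a separate chain of factors builds the 60S subunit. Growing tumour cells make many of these proteins, and the transcription factor MYC, which binds the sequence CACGTG, is a known activator of many of their genes.

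Depth moved with oxygen. The hypoxia libraries held 31781324 to 52526813 counts and the normoxia libraries 14750734 to 30032858. After all libraries were thinned to the shallowest total, 39 members were still lower in hypoxia in shControl, the same number as at full depth. Thinning keeps each gene's expected share of its library, so it bears only on the number of counts. Any difference in preparation that went with depth and oxygen cannot be told apart from oxygen. RIPOR3 itself was scarce, with 9, 3 and 11 counts in hypoxia shRIPOR3 against 33, 18 and 30 in hypoxia shControl, and 0, 0 and 1 in normoxia shRIPOR3 against 7, 3 and 7 in normoxia shControl. It was lower on knockdown in both oxygen conditions (edgeR quasi-likelihood adjusted p = 3.3e-07 in hypoxia and 0.000967 in normoxia). By the same test RIPOR3 was higher in hypoxia than in normoxia, with a log2 fold change of 1.53 in shControl (adjusted p = 0.000395). In shRIPOR3 the value was 3.08 (adjusted p = 0.00503). All of these rest on few counts, and the normoxia libraries were near the floor. The mesenchymal markers of the line were present, with VIM between 401 and 759.8 CPM (a gene's counts relative to the TMM-scaled library total), while PTPRC, CD3E, CD79A, DCN and LUM were near 0. The marker sums that follow, unlike the members' sums, are relative to the library total without TMM factors. Those factors were 1.029 to 1.048 in the hypoxia libraries and 0.9517 to 0.9684 in the normoxia libraries, so the 2 kinds of sums are not on the same scale. The 5 fibroblast markers, mostly COL1A1 and PDGFRB, summed to 7.64 to 7.96 CPM in hypoxia shRIPOR3, 11.5 to 12.8 in hypoxia shControl, 3.57 to 5.39 in normoxia shRIPOR3 and 5.49 to 7.73 in normoxia shControl, and 2 of the 3 tested rose in hypoxia in each kind of cells. The 9 luminal and epithelial markers, mostly KRT8 and KRT18 with ESR1 near 0, summed to 1252 to 1315 CPM in hypoxia shRIPOR3, 1213 to 1220.4 in hypoxia shControl, 1404 to 1440.2 in normoxia shRIPOR3 and 1303 to 1387 in normoxia shControl. The summed blood and endothelial markers, 6 of 7 in the table and nearly all PECAM1 and CDH5, ran from 3.52 to 4.64 CPM in hypoxia shRIPOR3, 13.7 to 14.4 in hypoxia shControl, 2.40 to 3.03 in normoxia shRIPOR3 and 7.05 to 8.18 in normoxia shControl. The 7 mesenchymal markers summed to 2504 to 2568 CPM in hypoxia shRIPOR3, 3573 to 3787 in hypoxia shControl, 1720 to 1786 in normoxia shRIPOR3 and 2028 to 2081 in normoxia shControl. Their part in the results below was not tested. In bulk RNA, fewer expressing cells and less RNA per cell cannot be told apart, and CPM is a share of the library, so a change in total RNA per cell would not be seen.

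Most members were lowest in hypoxia shControl and highest in normoxia shRIPOR3. The mean of 35 of the 44 members was lowest in hypoxia shControl, and that of 29 was highest in normoxia shRIPOR3. The order of group means was not counted over all tested genes. For 18 members the hypoxia shRIPOR3 mean was at or above the normoxia shControl mean. The summed level of all members was 20250 to 21392 CPM in hypoxia shRIPOR3, 16720 to 18624 in hypoxia shControl, 25047 to 27025 in normoxia shRIPOR3 and 23802 to 24740 in normoxia shControl. NPM1 and NCL make up more of this sum than all other members together.

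**Figure D1:**
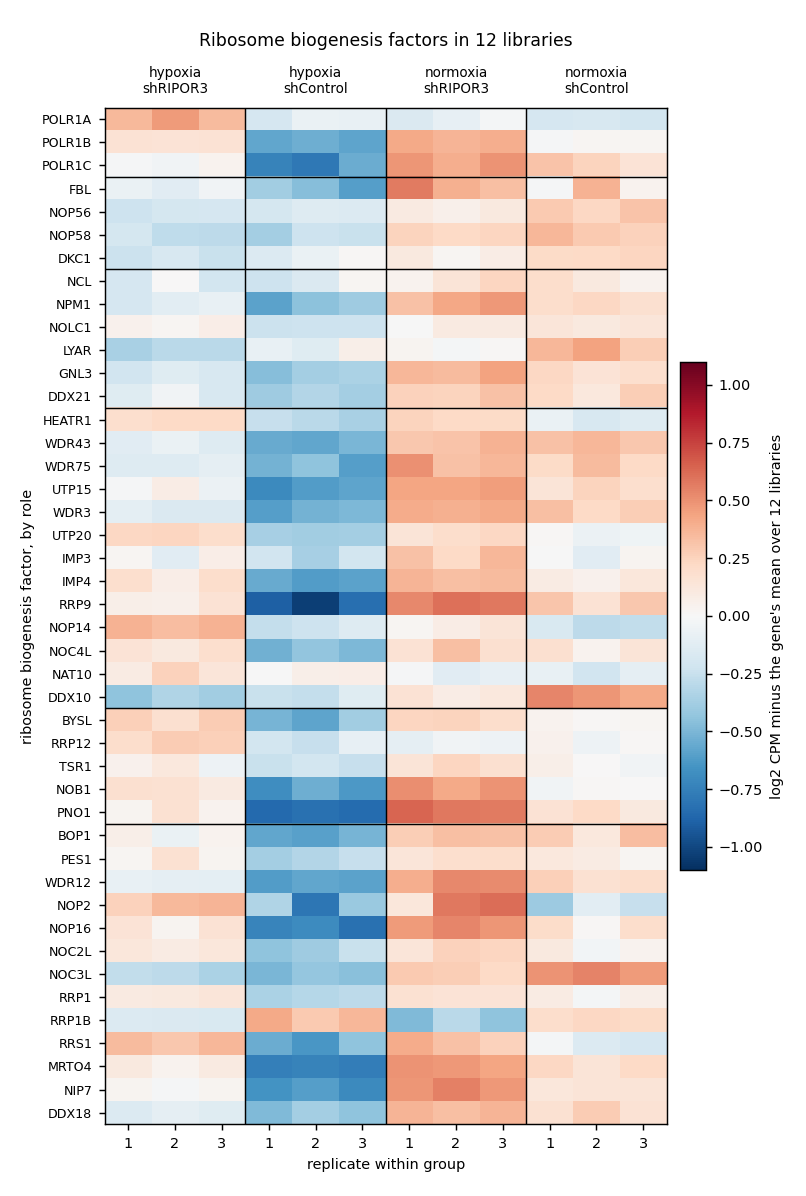
Level of each of the 44 ribosome biogenesis factors (rows, ordered by role) in each of the 12 libraries (columns), as log2 CPM minus the mean of that gene over the libraries, with red above and blue below the mean. The 3 hypoxia shControl columns are blue in most rows, and RRP9 and PNO1 show the deepest blue there.

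In shControl cells, hypoxia lowered most ribosome biogenesis factors. Of the 44 members 39 fell, 2 rose (NAT10 and RRP1B) and 3 did not pass the test (POLR1A, NOP14 and NOP2), where 32.3% of all tested genes fell, 32.5% rose and 64.8% were called in either direction. All 3 hypoxia shControl libraries were below all 3 normoxia shControl libraries for 39 members and above them for 2, against 33.1% and 34.1% of all tested genes. The members' median log2 fold change was -0.58, beside 0.02 for all tested genes and -0.20 for the 1480 genes between the members' quartiles of expression (97.2 to 286 CPM), of which 59.4% fell and 24.9% rose. RRP9, the U3 snoRNP protein of the small-subunit processome, changed most (-1.18 ± 0.0475, adjusted p = 1.68e-20), and was the only member to fall past 2-fold. PNO1, the partner of the 18S endonuclease NOB1, fell by 0.998, the 60S factor NOC3L by 0.97 and MRTO4, a 60S factor related to the ribosomal stalk protein P0, by 0.94. Scaling to library totals without TMM factors moved the median of all genes to 0.13 and gave 61.6% of all called genes as higher, against 50.1% with TMM, and the members' median was then -0.47. With library totals or cyclic loess the calls of NCL, DKC1, HEATR1, IMP3, RRP12 and TSR1 were lost.

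The same treatment of shRIPOR3 cells gave smaller differences. There 29 members fell, 5 rose (POLR1A, NOP14, NAT10, RRP12 and RRP1B) and 10 did not pass the test, where 30.3% of all tested genes fell, 25.3% rose and 55.6% were called. The 3 libraries of each group did not overlap for 31 members lower and 5 higher in hypoxia, against 32.6% and 28.5% of all genes. The median was -0.30, beside -0.01 for all tested genes and -0.17 for the genes of like expression, of which 57.2% fell and 24.1% rose, closer to the members' shares of 65.9% and 11.4% than in shControl. WDR12, a subunit of the PeBoW complex of 60S assembly, moved most (-0.58 ± 0.0381, adjusted p = 2.12e-15), followed by GNL3 (-0.56), NOC3L (-0.56) and WDR3 (-0.55). The largest increase was that of POLR1A, the catalytic subunit of RNA polymerase I (0.48 ± 0.0412, adjusted p = 2.65e-12). Scaling to library totals gave 63.6% of all called genes as higher, against 45.5% with TMM, and left the members' median at -0.18. The calls of NCL, IMP4 and TSR1 were lost with library totals.

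**Figure D2:**
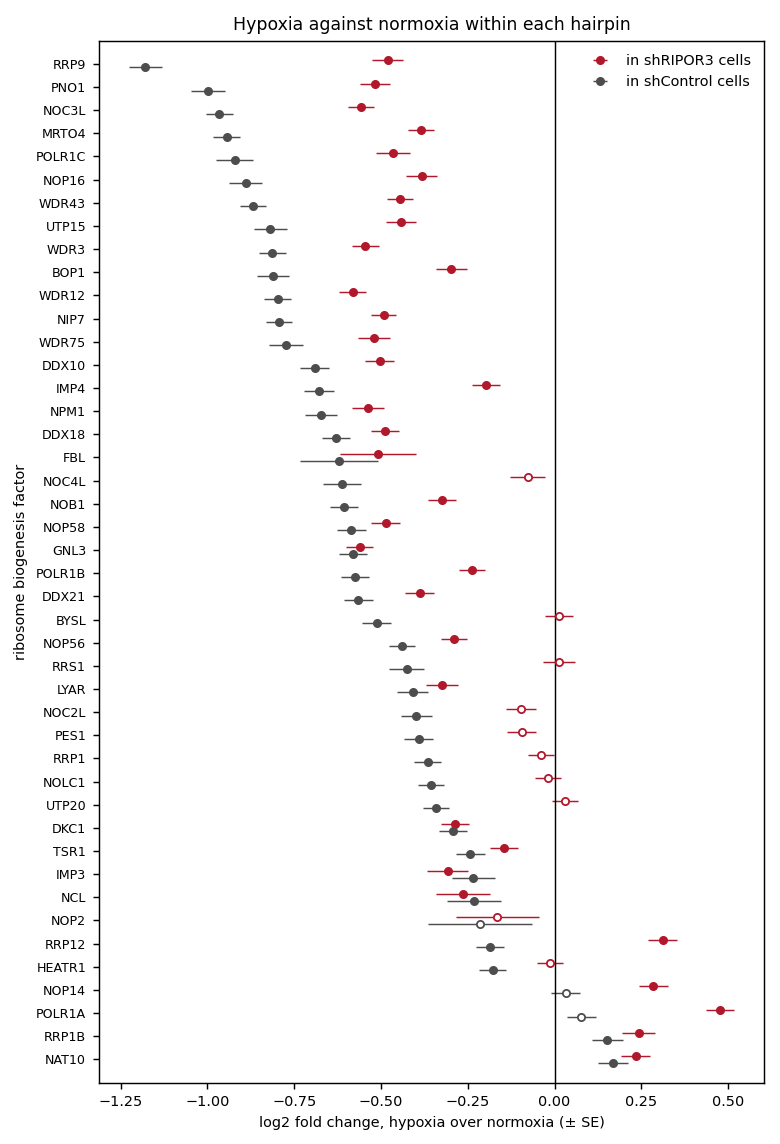
Log2 fold change of each member in hypoxia over normoxia, with its standard error, in shRIPOR3 (red) and in shControl (grey) cells, 3 libraries per group, with open points where the test was not passed. For most members the shRIPOR3 point lies nearer to 0, and RRP9, PNO1, NOC3L and MRTO4 lie farthest below 0 in shControl. The points are from TMM scaling. With cyclic loess scaling, which is not drawn, NCL crosses 0.

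The difference between these responses was tested as the interaction of hairpin and oxygen. It was called above 0, a smaller fall or a larger rise in shRIPOR3, for 31 members. It was called below 0 for none and uncalled for 13, and 42 members had positive and 2 negative values. Of all tested genes 23.9% were called, 11.3% above and 12.6% below 0. The members' median was 0.29, beside -0.02 for all tested genes and 0.04 for genes of like expression. Of the latter 25.1% were called above 0. Of the 31, 29 had fallen in shControl and 19 had fallen in both kinds of cells, as had 39 and 29 of all 44 members. RRP9 differed most (0.70 ± 0.0650, adjusted p = 1.01e-09), before MRTO4 (0.56), the processome protein NOC4L (0.54) and BYSL, a factor of late 40S maturation (0.53). RRP12, which helps to export the pre-40S subunit, was called in opposite directions, 0.31 in shRIPOR3 and -0.19 in shControl, and the shControl call was lost with library totals and with cyclic loess (adjusted p up to 0.784).

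**Figure D3:**
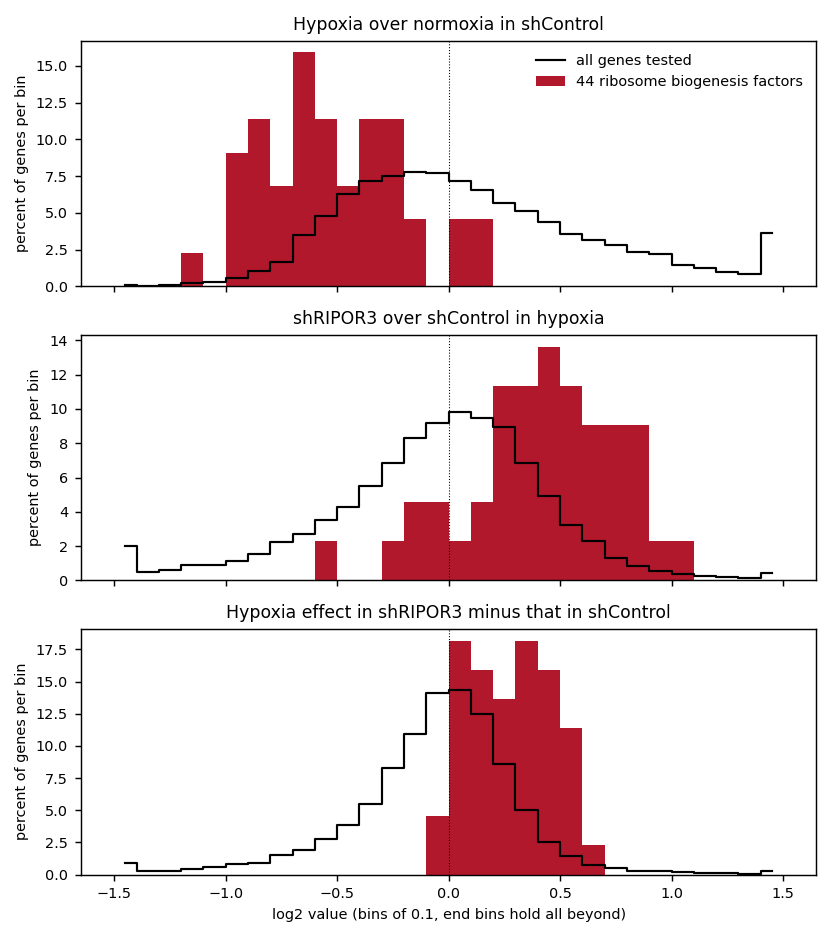
Distribution of log2 values of the 44 ribosome biogenesis factors (red bars) and of all 15648 tested genes (black line), in percent of genes per bin, for hypoxia over normoxia in shControl, shRIPOR3 over shControl in hypoxia, and the interaction. The members lie mostly below 0 in the first panel (median -0.58) and mostly above 0 in the other panels (medians 0.43 and 0.29).

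In normoxia, knockdown of RIPOR3 went with higher levels of 27 members, lower levels of 6 (NOP56, DKC1, LYAR, DDX10, NOC3L and RRP1B) and no call for 11, where 25.2% of all tested genes were higher, 20.7% lower and 45.9% called. Libraries did not overlap for 27 members higher and 8 lower, against 28.2% and 23.6% of all genes. The median was 0.17, beside 0.03 for all tested genes and 0.04 for genes of like expression, of which 38% were called higher. NOP2, a ribosomal RNA methyltransferase of the 60S pathway, moved most (0.76 ± 0.145, adjusted p = 4.21e-05), though at a low level, followed by RRP1B (-0.61), NOB1 (0.48) and RRS1 (0.44).

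In hypoxia the knockdown difference was wider. This widening is the interaction given above, seen from the side of knockdown, and is not a separate result. Here 37 members were higher, 4 lower (DKC1, LYAR, DDX10 and RRP1B) and 3 uncalled (NOP56, NOP58 and NCL), where 30.7% of all tested genes were higher, 31.3% lower and 62% called. Libraries did not overlap for 37 members higher and 4 lower, against 32.6% and 33.4% of all genes. The median was 0.43, beside -0.00 for all tested genes and 0.06 for genes of like expression, of which 46.7% were called higher. RRP9 (1.01 ± 0.0461, adjusted p = 6.18e-19) and PNO1 (0.92) led, with RRS1, which brings the 5S particle to the pre-60S subunit (0.88), and NOP16 (0.86) after them. RRP1B was lowest (-0.52 ± 0.0428, adjusted p = 5.36e-13). The hypoxia shControl libraries serve in both this comparison and the hypoxia response of shControl. The rankings, both led by RRP9 and PNO1, are therefore not independent. Of the members, 27 were higher on knockdown in both oxygen conditions, the same 4 were lower in both, and NOC3L was higher in hypoxia (0.16) and lower in normoxia (-0.25). Calls in both conditions were not counted over all tested genes.

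**Figure D4:**
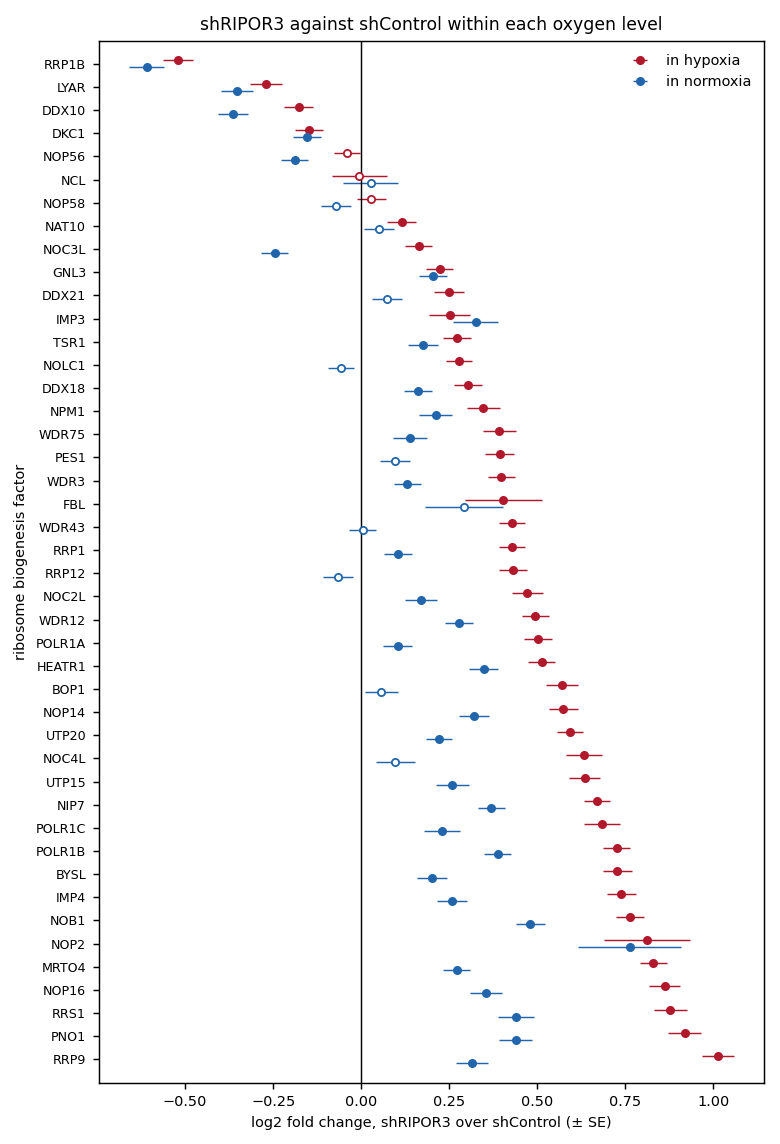
Log2 fold change of each member in shRIPOR3 over shControl, with its standard error, in hypoxia and in normoxia, 3 libraries per group, with open points where the test was not passed. Most hypoxia points lie to the right of the normoxia points, and RRP1B, LYAR, DDX10 and DKC1 lie below 0 in both.

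RRP9 and PNO1, the members with the largest hypoxia response in shControl, both carry the E-box CACGTG next to their start site. RRP9 lies at chr3:51933430-51941941 on the minus strand and PNO1 at chr2:68157844-68176238 on the plus strand (GRCh38). Their promoters, from 250 bases before to 50 bases after the start in RefSeq (GRCh38.p14, chr3:51941855-51942154 on the minus strand and chr2:68157638-68157937 on the plus strand), are shown 5′ to 3′ with the E-box in capitals.
RRP9: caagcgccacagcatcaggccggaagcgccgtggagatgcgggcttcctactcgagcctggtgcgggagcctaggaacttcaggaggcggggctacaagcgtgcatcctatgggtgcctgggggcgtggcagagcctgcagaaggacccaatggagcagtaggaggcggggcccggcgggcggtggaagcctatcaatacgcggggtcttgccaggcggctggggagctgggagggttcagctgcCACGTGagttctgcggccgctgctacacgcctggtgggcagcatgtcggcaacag
PNO1: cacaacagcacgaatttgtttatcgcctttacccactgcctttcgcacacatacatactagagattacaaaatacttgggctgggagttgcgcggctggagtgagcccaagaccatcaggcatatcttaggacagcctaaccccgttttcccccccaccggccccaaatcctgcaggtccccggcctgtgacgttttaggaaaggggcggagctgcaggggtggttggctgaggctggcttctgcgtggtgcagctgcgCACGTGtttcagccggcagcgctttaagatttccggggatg
Of the 44 members 37 had a promoter in the RefSeq table, and 16 of these (43.2%) held CACGTG, which reads the same on both strands, against 8.77% of all 27305 genes with a promoter and 12.4% of the 10415 tested genes with one. In 14 of the 16 it began within 60 bases of the start site. The shorter ACGTG, a form of the core of the hypoxia response element, was searched on both strands. It was in 21 members (56.8%), against 24.9% of all and 32.3% of tested genes. Every CACGTG contains it, so the 16 members with CACGTG are among these 21. The ACGTG shares therefore repeat the CACGTG result, and ACGTG outside CACGTG was not compared with other genes. Other forms of that core were not searched or marked. A few windows of 10 bases on each side of the E-box show that the flanking bases vary among members of different roles. They lie at chr19:39846358-39846383 (FBL, minus strand), chr3:52686028-52686053 (GNL3, plus strand), chr2:28894660-28894685 (WDR43, plus strand), chr11:34105604-34105629 (NAT10, plus strand), chr1:19251809-19251834 (MRTO4, plus strand), chr10:94362905-94362930 (NOC3L, minus strand).
FBL: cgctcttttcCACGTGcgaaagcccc
GNL3: cttcagttcaCACGTGgcgccagcgg
WDR43: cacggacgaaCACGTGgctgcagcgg
NAT10: tgcgcttgcgCACGTGctgtctacca
MRTO4: tcttccgccgCACGTGgattcagcgc
NOC3L: gggacttcggCACGTGtgtcattccc
In hypoxia in shControl 13 of 16 with it and 20 of 21 without it fell, with medians of -0.57 and -0.61. NAT10 holds the E-box and rose. A match describes these letters and is not a binding site.

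RNA polymerase I was represented by its 2 large subunits POLR1A and POLR1B, which form the active centre, and by POLR1C, a subunit shared with RNA polymerase III. POLR1A stood at 277, 299 and 276 CPM in the hypoxia shRIPOR3 libraries and 191, 206 and 205 CPM in the hypoxia shControl libraries. It was at 194, 203 and 214 CPM in the normoxia shRIPOR3 libraries and 191, 191 and 188 CPM in the normoxia shControl libraries. The hypoxia shRIPOR3 libraries were thus above all others, while hypoxia and normoxia overlapped in shControl. Hypoxia raised POLR1A in shRIPOR3 and gave 0.08 ± 0.0416, adjusted p = 0.104 in shControl, where 5 of 23 alternatives called it higher, with 0.19 on library totals and 0.24 with cyclic loess. The interaction was 0.40 ± 0.0585, adjusted p = 3.07e-06. The knockdown difference in hypoxia was 0.50 ± 0.0405, and that in normoxia, 0.10 ± 0.0423, adjusted p = 0.0447, was lost in 17 of 23 alternatives.

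POLR1B did not follow POLR1A. Its levels were 72.4, 71.9 and 72.5 CPM in the hypoxia shRIPOR3 libraries and 43.4, 44.6 and 43.2 CPM in the hypoxia shControl libraries. In normoxia they were 86.5, 83.8 and 85.3 CPM in the normoxia shRIPOR3 libraries and 64.2, 65.7 and 65.6 CPM in the normoxia shControl libraries. No 2 groups overlapped, and hypoxia shControl was lowest. Hypoxia lowered POLR1B by 0.24 in shRIPOR3 and by 0.57 in shControl, and knockdown raised it (0.72 ± 0.0376, adjusted p = 1.61e-18 in hypoxia). POLR1C showed 49.4, 48.7 and 51.1 CPM in the hypoxia shRIPOR3 libraries and 29.9, 28.9 and 34.2 CPM in the hypoxia shControl libraries. Without hypoxia it showed 70.0, 66.0 and 70.3 CPM in the normoxia shRIPOR3 libraries and 61.9, 59.0 and 55.4 CPM in the normoxia shControl libraries. All 4 groups were again apart, with log2 fold changes for hypoxia of -0.47 ± 0.0491 in shRIPOR3 and -0.92 ± 0.0529 in shControl.

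Of the 4 snoRNP members all fell in hypoxia in both kinds of cells, while knockdown raised 1 and lowered 1 in hypoxia and lowered 2 in normoxia. Of the genes of like expression 59.4% fell in shControl and 57.2% in shRIPOR3. On knockdown 46.7% of them were higher and 31.2% lower in hypoxia, and 29.1% were lower in normoxia. With 4 members, the counts for hypoxia and for knockdown are too few to set apart from these shares. FBL, the methyltransferase of box C/D snoRNPs, stood at 232, 223 and 238 CPM in the hypoxia shRIPOR3 libraries and 188, 177 and 160.4 CPM in the hypoxia shControl libraries. Its normoxia values were 363, 319 and 307 CPM in the normoxia shRIPOR3 libraries and 242, 317 and 251 CPM in the normoxia shControl libraries. The shControl normoxia library at 317 CPM lay within the shRIPOR3 range, so the normoxia hairpin groups overlapped. Hypoxia lowered FBL in both kinds of cells (-0.51 ± 0.110, adjusted p = 0.00363 in shRIPOR3 and -0.62 ± 0.112, adjusted p = 0.001 in shControl). Knockdown raised it in hypoxia (0.40 ± 0.110, adjusted p = 0.0111). In normoxia the knockdown gave 0.29 ± 0.111, adjusted p = 0.0625, which passed in 3 of 23 alternatives, among them the one without normoxia shControl replicate 2.

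DKC1, the pseudouridine synthase of box H/ACA snoRNPs, went the other way on knockdown. It was at 564, 589.9 and 563 CPM in the hypoxia shRIPOR3 libraries and 599, 631 and 671 CPM in the hypoxia shControl libraries. Its normoxia levels were 717, 676 and 703 CPM in the normoxia shRIPOR3 libraries and 771, 774 and 786 CPM in the normoxia shControl libraries. Every shRIPOR3 library was below every shControl library at the same oxygen level. The knockdown differences were -0.15 ± 0.0401, adjusted p = 0.00172 in hypoxia and -0.15 ± 0.0405, adjusted p = 0.00191 in normoxia, and hypoxia gave -0.29 in shRIPOR3 and -0.29 in shControl. NOP56 and NOP58, the core scaffold of box C/D snoRNPs, fell in hypoxia by 0.29 and 0.49 in shRIPOR3 and by 0.44 and 0.59 in shControl. In hypoxia neither passed the test for knockdown (-0.04 and 0.03).

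NPM1 and NCL, abundant nucleolar phosphoproteins that chaperone ribosomal RNA and proteins, were the most abundant members per length of exon, at 1737 and 847 CPM per kilobase, where NOP2 was lowest at 0.743. NPM1 stood at 5699, 5963 and 6111 CPM in the hypoxia shRIPOR3 libraries and 4295, 4731 and 4947 CPM in the hypoxia shControl libraries. In normoxia it stood at 8099.5, 8672 and 9011 CPM in the normoxia shRIPOR3 libraries and 7418, 7559 and 7301 CPM in the normoxia shControl libraries. The 4 groups did not overlap. Hypoxia lowered NPM1 by 0.54 in shRIPOR3 and by 0.67 in shControl, and knockdown raised it by 0.35 in hypoxia and 0.21 in normoxia. NPM1 has 45 pseudogenes named after it in GENCODE 29, 24 of them in the table, so its count may hold or lack reads from these copies.

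NCL did not pass the test for knockdown. It showed 5139.7, 5862 and 5059.6 CPM in the hypoxia shRIPOR3 libraries and 4981, 5231 and 5908 CPM in the hypoxia shControl libraries. In normoxia it showed 5981, 6429.7 and 6874 CPM in the normoxia shRIPOR3 libraries and 6668, 6275 and 5993 CPM in the normoxia shControl libraries. The hairpin groups overlapped in both oxygen conditions, with knockdown differences of -0.01 ± 0.0772, adjusted p = 0.958 in hypoxia and 0.03 ± 0.0772, adjusted p = 0.811 in normoxia. Hypoxia lowered NCL (-0.26 ± 0.0773, adjusted p = 0.0118 in shRIPOR3 and -0.23 ± 0.0773, adjusted p = 0.0198 in shControl), but with cyclic loess scaling the values were 0.0059 in shRIPOR3 and 0.11 in shControl. The shControl call was lost in 7 of 23 alternatives, among them library totals and leaving out replicate 1 or 2 of hypoxia shControl or of normoxia shControl (adjusted p from 0.0564 to 0.0745 without one of these libraries).

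Among the other nucleolar proteins, GNL3 (nucleostemin), a GTPase, stood at 292, 307 and 298 CPM in the hypoxia shRIPOR3 libraries and 244, 260.5 and 264 CPM in the hypoxia shControl libraries. Its normoxia values were 435, 429 and 458 CPM in the normoxia shRIPOR3 libraries and 394, 373 and 382 CPM in the normoxia shControl libraries. Hypoxia libraries were below normoxia libraries without overlap in both kinds of cells, by 0.56 in shRIPOR3 and 0.58 in shControl. The RNA helicase DDX21 fell by 0.39 in shRIPOR3 and 0.57 in shControl, and the zinc finger protein LYAR by 0.32 in shRIPOR3 and 0.41 in shControl. LYAR was also lower on knockdown (-0.27 ± 0.0447 in hypoxia and -0.35 ± 0.0455 in normoxia). NOLC1, a snoRNP chaperone, fell only in shControl by the test (-0.36), with -0.02 in shRIPOR3, where library totals gave 0.10 and cyclic loess 0.17, and the responses differed (interaction 0.34 ± 0.0529, adjusted p = 9.4e-06).

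The small-subunit processome, the large particle that assembles on the 5′ part of the ribosomal RNA precursor, held 13 members, of which 11 (84.6%) fell in hypoxia in shControl and 8 (61.5%) in shRIPOR3. Among genes of like expression 59.4% fell in shControl and 57.2% in shRIPOR3, near the share of these members in shRIPOR3. On knockdown in hypoxia 12 (92.3%) were higher, against 46.7% of the genes of like expression. RRP9, which binds the U3 snoRNA, stood at 115, 115 and 123 CPM in the hypoxia shRIPOR3 libraries and 59.1, 53.8 and 62.4 CPM in the hypoxia shControl libraries. Normoxia levels were 159.8, 169 and 165 CPM in the normoxia shRIPOR3 libraries and 136, 124 and 136 CPM in the normoxia shControl libraries. No groups overlapped, and the hypoxia shControl libraries were under the lowest library of any other group. WDR3, of the UTP-B subcomplex, was at 309, 298 and 297 CPM in the hypoxia shRIPOR3 libraries and 219, 232 and 235 CPM in the hypoxia shControl libraries. Its normoxia values were 440.3, 435 and 443 CPM in the normoxia shRIPOR3 libraries and 417, 385 and 401 CPM in the normoxia shControl libraries. It fell by 0.55 in shRIPOR3 and 0.81 in shControl.

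NOC4L, which pairs with NOP14 in the processome, passed the hypoxia test in shControl and not in shRIPOR3. It stood at 32.2, 31.4 and 32.9 CPM in the hypoxia shRIPOR3 libraries and 20.2, 21.5 and 20.6 CPM in the hypoxia shControl libraries. Without hypoxia the levels were 32.4, 36.4 and 32.9 CPM in the normoxia shRIPOR3 libraries and 32.8, 29.8 and 32.1 CPM in the normoxia shControl libraries. The hypoxia shControl libraries lay below all others, which overlapped. Hypoxia gave -0.08 ± 0.0509, adjusted p = 0.204 in shRIPOR3 and -0.61 ± 0.0548, adjusted p = 3.23e-12 in shControl, and the interaction of 0.54 ± 0.0746 passed (adjusted p = 1.26e-06). NOP14 itself had 0.28 ± 0.0410 in shRIPOR3, where it rose, and 0.03 ± 0.0414, adjusted p = 0.516 in shControl, where library totals (0.14) and cyclic loess (0.23) called it higher.

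The UTP-A subcomplex, which joins the precursor first, was represented by 4 members. WDR43, UTP15 and WDR75 fell by 0.45, 0.44 and 0.52 in shRIPOR3 and by 0.87, 0.82 and 0.77 in shControl. HEATR1 gave -0.01 in shRIPOR3, with 0.11 on library totals, and -0.18 in shControl. IMP3 and IMP4, partners of the U3 snoRNP, fell by 0.31 and 0.20 in shRIPOR3 and by 0.23 and 0.68 in shControl. For UTP20 the values were 0.03 in shRIPOR3, uncalled but called higher with library totals (0.15) and cyclic loess (0.16), and -0.34 in shControl. The helicase DDX10 was lower on knockdown (-0.18 ± 0.0410 in hypoxia and -0.36 ± 0.0416 in normoxia) while also falling in hypoxia (-0.50 in shRIPOR3 and -0.69 in shControl).

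NAT10, the acetyltransferase of 18S ribosomal RNA, rose in hypoxia. Its levels were 272, 304 and 280.2 CPM in the hypoxia shRIPOR3 libraries and 255, 267 and 268 CPM in the hypoxia shControl libraries. They were 253, 235 and 240.3 CPM in the normoxia shRIPOR3 libraries and 242, 221 and 239 CPM in the normoxia shControl libraries. Every hypoxia library was above every normoxia library of the same hairpin. NAT10 rose by 0.23 ± 0.0427 in shRIPOR3 (adjusted p = 1.54e-05) and by 0.17 ± 0.0429 in shControl (adjusted p = 0.00083). The knockdown difference in hypoxia was 0.11 ± 0.0420, adjusted p = 0.0178, lost in 4 of 23 alternatives.

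All 5 factors of late 40S maturation were higher on knockdown in hypoxia and 4 of them in normoxia. Of all tested genes 30.7% and 25.2% were higher, and of the genes of like expression 46.7% and 38%. PNO1 stood at 43.6, 48.0 and 43.9 CPM in the hypoxia shRIPOR3 libraries and 23.6, 24.2 and 23.7 CPM in the hypoxia shControl libraries. The normoxia libraries gave 66.4, 63.9 and 63.6 CPM in the normoxia shRIPOR3 libraries and 47.7, 49.8 and 46.0 CPM in the normoxia shControl libraries. The hypoxia shControl libraries lay close together and apart from the rest. NOB1, the endonuclease that makes the 3′ end of 18S ribosomal RNA, was at 166, 165 and 157 CPM in the hypoxia shRIPOR3 libraries and 91.6, 101 and 94.9 CPM in the hypoxia shControl libraries. Its normoxia values were 209, 196 and 206 CPM in the normoxia shRIPOR3 libraries and 143, 148 and 147 CPM in the normoxia shControl libraries. Here the hypoxia shRIPOR3 libraries were above the normoxia shControl libraries as well. Knockdown raised NOB1 by 0.76 ± 0.0397 in hypoxia and 0.48 ± 0.0407 in normoxia.

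BYSL (bystin), a factor of the pre-40S particle, was at 201, 189 and 203 CPM in the hypoxia shRIPOR3 libraries and 118, 112 and 129 CPM in the hypoxia shControl libraries. Its normoxia levels were 197, 199 and 192 CPM in the normoxia shRIPOR3 libraries and 172, 169 and 171 CPM in the normoxia shControl libraries. Oxygen groups overlapped in shRIPOR3 and were apart in shControl. Hypoxia gave 0.01 ± 0.0412, adjusted p = 0.803 in shRIPOR3 and -0.51 ± 0.0423, adjusted p = 4.32e-13 in shControl, and in shRIPOR3 library totals (0.14) and cyclic loess (0.12) called it higher. The GTPase-like TSR1 fell by 0.15 in shRIPOR3 and 0.24 in shControl.

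**Figure D5:**
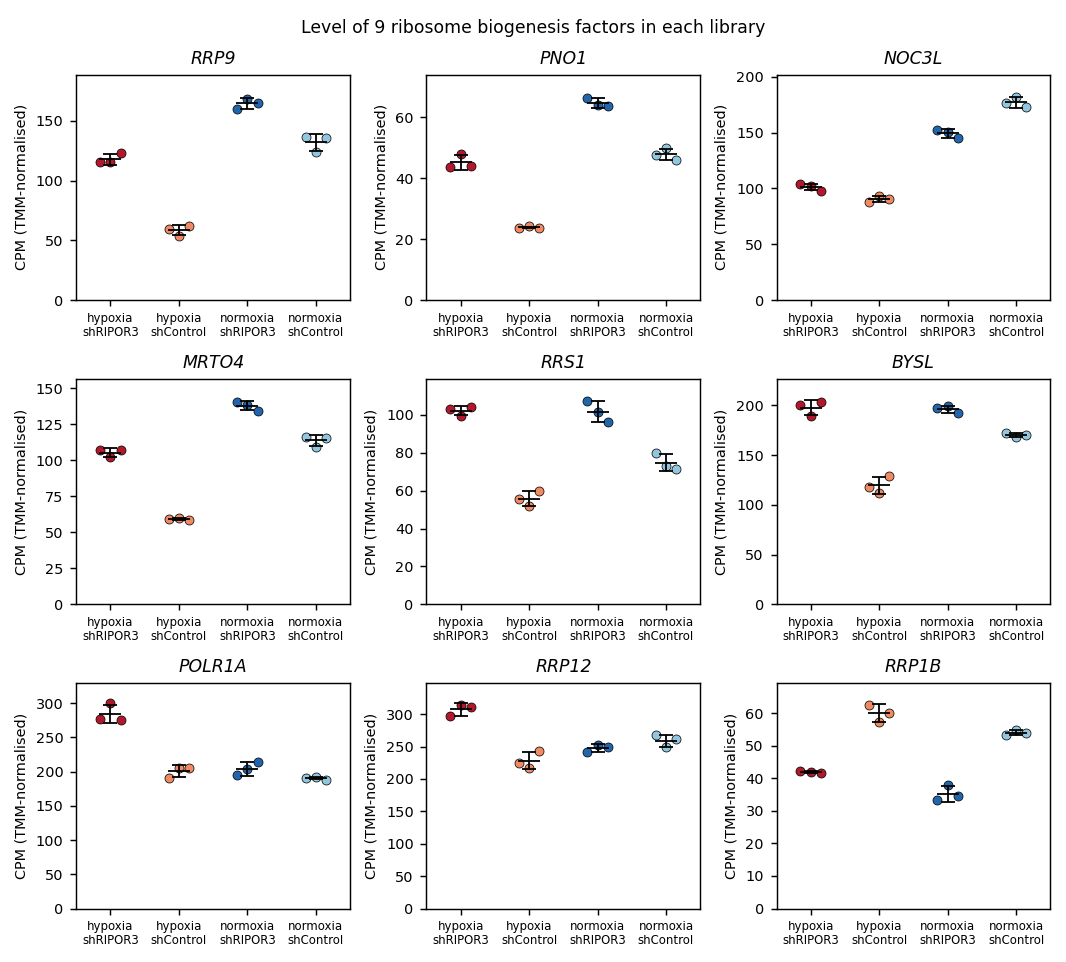
TMM-scaled CPM of RRP9, PNO1, NOC3L, MRTO4, RRS1, BYSL, POLR1A, RRP12 and RRP1B in each library (points), grouped as hypoxia shRIPOR3, hypoxia shControl, normoxia shRIPOR3 and normoxia shControl, with a line at each group mean and bars of 1 SD on each side (n = 3 libraries each). RRP9, PNO1 and MRTO4 are lowest in hypoxia shControl, while RRP1B is lowest in normoxia shRIPOR3.

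In the 60S pathway, 11 of 13 members fell in hypoxia in shControl and 7 (53.8%) in shRIPOR3, where 59.4% and 57.2% of the genes of like expression fell, so the count in shRIPOR3 was not above that share. On knockdown in hypoxia 12 (92.3%) were higher, against 46.7% of the genes of like expression. MRTO4 stood at 107, 102 and 107 CPM in the hypoxia shRIPOR3 libraries and 59.1, 59.9 and 58.9 CPM in the hypoxia shControl libraries. Under normoxia it was at 140.5, 139 and 134 CPM in the normoxia shRIPOR3 libraries and 116, 109 and 116 CPM in the normoxia shControl libraries. The 4 groups were apart, with hypoxia shControl lowest. NOP16 showed 144, 133 and 145 CPM in the hypoxia shRIPOR3 libraries and 78.4, 80.3 and 73.6 CPM in the hypoxia shControl libraries. Its normoxia values were 180.1, 188 and 182 CPM in the normoxia shRIPOR3 libraries and 149.7, 131 and 148 CPM in the normoxia shControl libraries. Its hypoxia shRIPOR3 range overlapped only that of normoxia shControl. NOP16 fell by 0.38 in shRIPOR3 and by 0.89 in shControl.

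The PeBoW complex of PES1, BOP1 and WDR12 processes the precursor of 28S ribosomal RNA. WDR12 stood at 120.0, 119 and 118 CPM in the hypoxia shRIPOR3 libraries and 83.3, 85.4 and 84.9 CPM in the hypoxia shControl libraries. At normal oxygen it had 168, 183 and 182 CPM in the normoxia shRIPOR3 libraries and 152, 143 and 145 CPM in the normoxia shControl libraries. No groups overlapped. BOP1 and PES1 gave -0.30 and -0.09 in shRIPOR3 and fell by 0.81 and 0.39 in shControl; PES1 in shRIPOR3 was uncalled. On knockdown in hypoxia WDR12, BOP1 and PES1 were higher by 0.49, 0.57 and 0.39. In normoxia only WDR12 of these was called higher (0.28), and the differences among the 3 were not tested.

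NOC3L, which escorts pre-60S particles, stood at 104, 102 and 98.1 CPM in the hypoxia shRIPOR3 libraries and 87.9, 93.0 and 90.8 CPM in the hypoxia shControl libraries. In normoxia it stood at 153, 150.1 and 145 CPM in the normoxia shRIPOR3 libraries and 176, 182 and 173 CPM in the normoxia shControl libraries. The order of the hairpin groups turned round with oxygen, without overlap in either condition (interaction 0.41 ± 0.0541, adjusted p = 5.17e-07). Its relative NOC2L gave -0.10, uncalled, in shRIPOR3 and -0.40 in shControl. RRS1 was at 103, 99.5 and 104 CPM in the hypoxia shRIPOR3 libraries and 55.3, 51.9 and 59.7 CPM in the hypoxia shControl libraries. Its normoxia values were 107, 101 and 96.4 CPM in the normoxia shRIPOR3 libraries and 79.9, 72.9 and 71.3 CPM in the normoxia shControl libraries. The oxygen groups overlapped in shRIPOR3 (0.01 ± 0.0469, adjusted p = 0.837, but 0.13 and called higher on library totals) and not in shControl (-0.43 ± 0.0502, adjusted p = 7.35e-09).

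RRP1B and RRP1 are related nucleolar proteins that moved apart. RRP1B stood at 42.1, 41.9 and 41.6 CPM in the hypoxia shRIPOR3 libraries and 62.6, 57.2 and 60.1 CPM in the hypoxia shControl libraries. Normoxia levels were 33.4, 38.0 and 34.5 CPM in the normoxia shRIPOR3 libraries and 53.3, 54.9 and 54.0 CPM in the normoxia shControl libraries. All shRIPOR3 libraries were below all shControl libraries, by log2 values of -0.52 in hypoxia and -0.61 in normoxia, and hypoxia raised RRP1B in both kinds of cells (0.24 in shRIPOR3 and 0.15 in shControl). RRP1 was higher on knockdown by 0.43 in hypoxia and by 0.10 in normoxia, the normoxia call being lost in 10 of 23 alternatives. It gave -0.04, uncalled, for hypoxia in shRIPOR3 and fell by 0.36 in shControl.

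NOP2 was the scarcest member, with 3.98, 4.28 and 4.32 CPM in the hypoxia shRIPOR3 libraries and 2.65, 1.93 and 2.51 CPM in the hypoxia shControl libraries. In normoxia it had 3.63, 4.98 and 5.11 CPM in the normoxia shRIPOR3 libraries and 2.53, 3.09 and 2.80 CPM in the normoxia shControl libraries. The shRIPOR3 libraries were above the shControl libraries in both oxygen conditions, while the oxygen groups overlapped. Its lowest library held 44 counts, and 2550 of its 4687 exon bases are shared with AC006064.6 on the same strand, so reads may have been left out or split. NIP7 and the helicase DDX18 fell by 0.49 and 0.49 in shRIPOR3 and by 0.79 and 0.63 in shControl. Of all members, 18 share exon bases with a gene on the other strand, such as HEATR1 with LGALS8 and WDR3 with SPAG17, and the strand setting of the counting is not given in the sources used here.

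A further 129 genes of the same machinery, in 5 lists, were called as follows. Of all tested genes 32.3% fell in hypoxia in shControl and 30.3% in shRIPOR3. On knockdown 30.7% of all tested genes were higher in hypoxia and 25.2% in normoxia, and the interaction was called above 0 for 11.3%. Of the 129 genes, 112 fell and 10 rose in hypoxia in shControl (median -0.48), and 95 fell and 13 rose in shRIPOR3 (median -0.29). On knockdown 97 were higher and 10 lower in hypoxia (median 0.36) and 68 were higher and 15 lower in normoxia (median 0.14). The interaction was called above 0 for 70 and below 0 for 2. Of 50 other 60S genes 41 fell in hypoxia in shControl, of 40 other small-subunit genes 37, of 14 RNA exosome genes 13, of 13 other RNA polymerase I genes 11 and of 12 other snoRNP genes 10. In shRIPOR3 these counts were 34, 32, 11, 9 and 9 in the same order of lists. On knockdown in normoxia 28 of the 60S genes were higher and 4 lower, and 21 and 7 of the small-subunit genes. The counts were 8 and 1 for the exosome, 7 and 0 for the snoRNP and 4 and 3 for the RNA polymerase I genes. The last, 30.8% and 23.1% of their list, were near the 25.2% and 20.7% of all tested genes. On knockdown in hypoxia 38 of the 60S genes were higher and 5 lower, 33 and 1 of the small-subunit genes, 9 and 2 of the exosome genes, 7 and 1 of the RNA polymerase I genes and 10 and 1 of the snoRNP genes. The interaction was called above 0 for 28 of the 60S genes and 27 of the small-subunit genes. It was called so for 6 of the exosome genes, 4 of the RNA polymerase I genes and 5 of the snoRNP genes.

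The largest of these changes in hypoxia in shControl, in log2 units, were those of the polymerase I subunits ZNRD1 (-0.93), POLR1E (-0.83), the H/ACA protein NOP10 (-0.67) with the snoRNP assembly factor RUVBL1 (-0.63), the processome protein NOL11 (-0.99), the 60S factors NIFK (-1.06) and PAK1IP1 (-0.995) and the exosome subunits EXOSC1 (-0.80), EXOSC7 (-0.74). DDX47 had 1.23 ± 0.472, adjusted p = 0.022, at only 0.391 ± 0.0479 CPM in hypoxia shControl and 0.183 ± 0.105 CPM in normoxia shControl (mean ± SD, n = 3 each). In shRIPOR3 the leading changes were those of the polymerase I initiation factors TAF1C (0.76) and TAF1A (-0.55) and of the snoRNP genes NOP10 (-0.57) and ZNHIT3 (-0.43). Next came the small-subunit factors DCAF13 (-0.67) and LTV1 (-0.64), the 60S factors URB1 (0.92) and MDN1 (0.74), and the exosome genes EXOSC9 (-0.79) and C1D (-0.53). URB1 and MDN1, both of 60S assembly, rose there, with MDN1 at 268 ± 12.5 CPM in hypoxia shRIPOR3 and 161 ± 4.18 CPM in normoxia shRIPOR3.

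On knockdown in hypoxia the leading changes were those of the polymerase I genes POLR1E (0.75) and TCOF1 (-0.67) and the snoRNP genes NAF1 (0.60) and NHP2 (0.54). The small-subunit genes NOL6 (1.07) and BUD23 (0.71), the 60S genes PELP1 (-0.85) and SENP3 (0.79) and the exosome genes EXOSC5 (0.65) and EXOSC4 (0.64) followed. NOL6, a processome protein, averaged 226 ± 6.71 CPM in hypoxia shRIPOR3 and 108 ± 4.03 CPM in hypoxia shControl. In normoxia they were those of the polymerase I genes TCOF1 (-1.11) and CD3EAP (-0.55) and the snoRNP genes NAF1 (0.48) and ZNHIT3 (0.35). The small-subunit genes BUD23 (0.52) and BMS1 (-0.50), the 60S genes PELP1 (-1.09) and RRP15 (0.48) and the exosome genes EXOSC1 (0.28) and EXOSC5 (0.27) came after them. TCOF1 (treacle), which supports ribosomal DNA transcription, was lower on knockdown in both, at 381 ± 10.2 CPM in hypoxia shRIPOR3 and 607 ± 22.7 CPM in hypoxia shControl, and at 269.9 ± 6.79 CPM in normoxia shRIPOR3 and 583 ± 6.05 CPM in normoxia shControl. PELP1, which acts with SENP3 in 60S maturation, was lower in both as well, while SENP3 was higher in hypoxia.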

How the data were processed

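The authors deposited raw counts per gene symbol, 1 column per library, in 12 libraries of MDA-MB-231 cells. Fastp 0.23.4, STAR 2.5.3a, featureCounts and GRCh38 are named per the submitters' processing notes; for the annotation, the strand setting and the treatment of duplicates nothing is stated (not given in the sources used here). Stranded mRNA libraries are stated per the labels' protocols.

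From these counts, edgeR 4.0.16 (R 4.3.3) modelled the 12 libraries together with a mean for each group. Of 24641 symbols 15648 passed filterByExpr, and TMM factors ran from 0.9517 to 1.048. Genes were called by the quasi-likelihood test at a Benjamini-Hochberg adjusted p under 0.05 over all tested genes. The biological coefficient of variation was 3.74%. Log2 fold changes are given ± SE. Library depth was 14750734 to 52526813 counts, and 41 of the 44 members had at least 500 counts in every library. Replicates of a group differed by more than sampling noise (chi-square per degree of freedom 2.65 to 6.32), so none was counted as a repeat of another. Exon lengths and overlaps came from GENCODE 29 and promoters from RefSeq (GRCh38.p14).

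The members and gene lists were chosen with earlier results of these data known. Any member may be named. Values per library are given for the 4 members with the largest called change and the largest of opposite sign in each comparison, and for POLR1A, POLR1B, POLR1C, FBL, DKC1, NCL and NPM1. From each other list the 2 largest called changes per pairwise comparison are named.

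Alternatives were DESeq2 1.42.0, its size factors, upper-quartile factors, library totals, cyclic loess with limma 3.58.1, all symbols unfiltered, a minimum of 1 CPM in 3 libraries, fits of the 2 groups alone, the replicate number as a block, calls at 0.01, thinned libraries (added after seeing the data) and each library left out in turn. The fit was also run on simulated counts of 15648 genes, with 200 genes drawn at random and changed in 1 group. It recovered 34% of genes changed 5/4-fold and 71% of those changed 2-fold for the interaction. For the other comparisons it recovered 48% to 57% and 79% to 85%. False calls made up 5.93% to 10.3% of its calls. In the data 23.9% to 64.8% of tested genes were called, so these rates do not carry over to the results above.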

Additional observations from a re-analysis of the deposited data

Results flagged for a closer look

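The hypoxia response of 31 members differed between shRIPOR3 and shControl cells by the interaction test, with an edgeR adjusted p under 0.05 (11.3% of all tested genes were called in this direction). The values are log2 differences, the response in shRIPOR3 minus that in shControl, and all 31 are above 0. In RNA polymerase I they were POLR1A (0.40), POLR1B (0.34) and POLR1C (0.46). Among snoRNP and nucleolar proteins they were NOP56 (0.15), NOLC1 (0.34) and DDX21 (0.18).

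In the small-subunit processome they were HEATR1 (0.16), WDR43 (0.42), WDR75 (0.25), UTP15 (0.38), WDR3 (0.27), UTP20 (0.37), IMP4 (0.48), RRP9 (0.70), NOP14 (0.25), NOC4L (0.54) and DDX10 (0.19). In late 40S maturation they were BYSL (0.53), RRP12 (0.50), NOB1 (0.28) and PNO1 (0.48).

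In 60S assembly they were BOP1 (0.51), PES1 (0.30), WDR12 (0.22), NOP16 (0.51), NOC2L (0.30), NOC3L (0.41), RRP1 (0.33), RRS1 (0.44), MRTO4 (0.56) and NIP7 (0.30). The calls of NOP56, DDX21, HEATR1 and DDX10 were each lost in 4 to 10 of 22 alternatives.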

How the results depend on the processing

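Of the 220 results of single members (44 members in 5 comparisons), 181 kept their direction and call under all alternatives run for them and 39 changed in at least 1. These were 23 for each pairwise comparison and 22 for the interaction, which a fit of only 2 groups cannot test. Counts of members higher in hypoxia moved most: 4 with library totals and 4 with cyclic loess in shControl, against 2, and 10 and 8 in shRIPOR3, against 5. The members' median in hypoxia in shControl was -0.47 with library totals, -0.39 with cyclic loess, -0.55 with the 1 CPM filter and -0.54 after thinning to the shallowest total, an alternative chosen after seeing the data. In shRIPOR3 it was -0.27 with upper-quartile factors, -0.18 with library totals, -0.18 with cyclic loess, -0.28 without a filter, -0.28 with the 1 CPM filter and -0.27 with only the 2 groups. On knockdown it was 0.14 in normoxia with only the 2 groups, and in hypoxia 0.39 with cyclic loess and 0.46 without a filter. For the interaction it was 0.31 with DESeq2's size factors, 0.31 with DESeq2 and 0.25 with cyclic loess, and 2350 genes were called at a threshold of 0.01, against 3738. Leaving out single libraries gave medians from -0.59 to -0.55 for hypoxia in shControl, -0.33 to -0.26 in shRIPOR3, 0.14 to 0.20 for knockdown in normoxia, 0.43 to 0.47 in hypoxia and 0.26 to 0.33 for the interaction. Signs turned for NCL with cyclic loess (0.11 in shControl and 0.0059 in shRIPOR3), for NOLC1 in hypoxia in shRIPOR3 with library totals (0.10) and cyclic loess (0.17), and for HEATR1 there with library totals (0.11). The cause was not tested.

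Libraries with the same replicate number did not deviate together (18 correlations from -0.0194 to 0.0254), so the numbers were not used as pairs. With a replicate block 10124 genes were called for hypoxia in shControl, 8675 in shRIPOR3, 7158 for knockdown in normoxia, 9698 in hypoxia and 3700 for the interaction, and the members' counts were unchanged. After thinning, the knockdown calls of IMP3 in hypoxia (0.12, adjusted p = 0.209) and POLR1A in normoxia (0.10, adjusted p = 0.0624) and the interaction calls of HEATR1 (0.11, adjusted p = 0.235) and NOP56 (0.14, adjusted p = 0.0728) were lost.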
